A study of Homo sapiens with 6 samples.

Results

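Notch is a receptor pathway that works between touching cells. A ligand of the Jagged (JAG) or Delta-like (DLL) type on one cell pulls on a Notch receptor of its neighbour, the receptor is cut by ADAM proteases and then by gamma-secretase, and the freed intracellular part enters the nucleus and joins the DNA-binding protein RBPJ on genes such as HES1 and HEY1, which encode transcriptional repressors. Fringe enzymes such as LFNG add sugars to the receptor and change which ligands it responds to. In the embryo the pathway is known for somite segmentation, for the choice between secretory or neuronal fates and their progenitors, and, in endoderm derivatives, for the pancreas, the liver bile ducts and the airways.

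Here the expression of 10 Notch genes was followed in definitive endoderm (DE) cells made with and without saracatinib (SAR), an inhibitor of Src family kinases. They comprise the receptors NOTCH1, NOTCH2 and NOTCH3, the ligands JAG1, JAG2, DLL1 and DLL3, the fringe LFNG and the effectors HES1 and HEY1. The 10 were taken by gene symbol, and the choice was made with earlier results of these data known. All 10 were found among the 40396 Ensembl genes of the deposited table. H1, an established human embryonic stem cell line, was differentiated for 3 days in medium containing 50 ng/ml activin A. CHIR99021, which activates Wnt signaling, was present at 2.5 µM for the first 24 h. Cells given 0.5 µM SAR formed one group and cells given DMSO the other, with 3 libraries each (1 line, bulk RNA, so that a change in the number of cells that express a gene and a change per cell cannot be told apart). Whether the libraries came from separate cultures is not stated, and p-values then measure the spread between these libraries.

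Values are FPKM, fragments scaled by gene length and by library total, and are comparable between genes because they are scaled by length. The library totals behind them were 18877964 to 24419937 reads in control and 16681280 to 18389543 with SAR. All 10 DE markers checked, among them SOX17 and FOXA2, exceeded 0.5 FPKM in at least 1 library. With SAR 4 of these markers were higher (SOX17, FOXA2, KIT and HHEX, log2 fold changes 0.98 to 1.44) and 6 were lower (CXCR4, GATA4, GATA6, CER1, EOMES and GSC, -1.48 to -0.51), by the test described below. Their summed level was 3958 to 5060 FPKM in control and 2074 to 2129 with SAR, of which CER1 alone made 3540 to 4603 and 1645 to 1714 FPKM. Of 8 pluripotency markers SOX2 (0.88), LIN28A (0.20) and TDGF1 (0.20) were higher and NANOG (-1.30) was lower, with sums of 941 to 1055 FPKM in control and 1147 to 1161 with SAR. Of all tested genes 23.7% were higher and 9.55% lower. After the median-ratio rescaling named below, 1 pluripotency marker was higher and 1 lower, and the DE markers again gave 4 and 6. In that setting 13.8% of all tested genes were higher and 15.5% lower. The part of these shifts in the Notch results was not tested. More genes had a value above 0 in control replicate 1 (33169) than in the other 5 libraries (29506 to 30109). SAR replicate 3 was the highest SAR library for all 10 Notch genes, whereas it was highest for 40.2% of all tested genes.

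The test was limma on log2(FPKM + 0.1). It covered the 16371 genes whose mean reached 0.5 FPKM, and p-values were adjusted over all of these by the Benjamini-Hochberg method. A gene is said to have risen or fallen at an adjusted p-value under 0.05, and to be upregulated or downregulated when its log2 fold change also exceeded 1 in size, the limits used in the study. The added 0.1 makes the fold change of low genes smaller than the ratio of their means. Across the tested genes the median log2 fold change was 0.12, a shift that median-ratio rescaling of the libraries brought to 0.

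Promoter sequence is shown first for HES1, LFNG and JAG1, 3 genes that rose, because RBPJ is known to bind sites that hold the letters TGGGAA. Only exact matches to these letters were marked, and sites with other letters were not searched for. The sequences come from RefSeq (GRCh38.p14), are written 5′ to 3′ on the strand of the gene, and have TGGGAA in capitals. Positions count back from the RefSeq start site, whose first base is +1.
HES1, chr3:194136008-194136137, plus strand, positions -140 to -11: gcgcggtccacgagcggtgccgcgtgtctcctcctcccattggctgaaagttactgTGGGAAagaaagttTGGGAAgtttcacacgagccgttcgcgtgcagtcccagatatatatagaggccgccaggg
LFNG, chr7:2517613-2517742, plus strand, positions -250 to -121 of its downstream start: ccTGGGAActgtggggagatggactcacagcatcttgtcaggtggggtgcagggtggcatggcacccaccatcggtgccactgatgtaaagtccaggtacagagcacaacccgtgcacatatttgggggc
JAG1, chr20:10674010-10674139, minus strand, positions -140 to -11: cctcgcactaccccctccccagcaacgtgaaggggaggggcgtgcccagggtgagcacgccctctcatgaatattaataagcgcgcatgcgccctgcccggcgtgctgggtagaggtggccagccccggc

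Each RefSeq window held the 250 bases before and 50 bases after a start site and was searched on both strands, and 7 of the 10 genes had one. The HES1 window held 2 matches to TGGGAA, at -84 and -70, both on the strand of the gene. Of all 35116 windows, 24.0% held at least 1 match and 3.80% held 2 or more. LFNG has a window for each of 2 start sites, and each held 1 match, at -248 of the downstream start and, on the other strand, at -5 of the upstream start. The windows of JAG1, JAG2, NOTCH1, NOTCH2 and NOTCH3 held 0 matches to these letters. HES proteins are themselves known to bind the N-box, CACNAG. The windows held 4 N-box matches in HES1, 2 in NOTCH1, 1 each in NOTCH2, NOTCH3 and the downstream window of LFNG, and 0 in JAG1, JAG2 and the upstream window of LFNG, where 38.0% of all windows held at least 1 and 8.94% held 2 or more. A match is a run of letters and not a measured binding site.

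With SAR, 4 of the 10 genes rose, LFNG, JAG1, HES1 and DLL3, and 0 fell. Of all tested genes, 23.7% rose and 9.55% fell. The 3 receptors and JAG2 did not pass the test, DLL1 narrowly missed it, and HEY1 lay under the minimum level and was not tested. LFNG, JAG1 and HES1 were also upregulated and 0 genes were downregulated, against 3.41% and 1.58% of all tested genes, and DLL3 rose by less than the limit of 1. After median-ratio rescaling 4 genes again rose and 0 fell, against 13.8% and 15.5% of all tested genes. For 6 genes, JAG1, DLL1, DLL3, LFNG, HES1 and HEY1, every SAR library lay above every control library. The same held for 35.5% of all tested genes, a share that does not cover HEY1, which was not tested. DLL1 reached the minimum level for testing only through the SAR libraries.

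**Figure D1:**
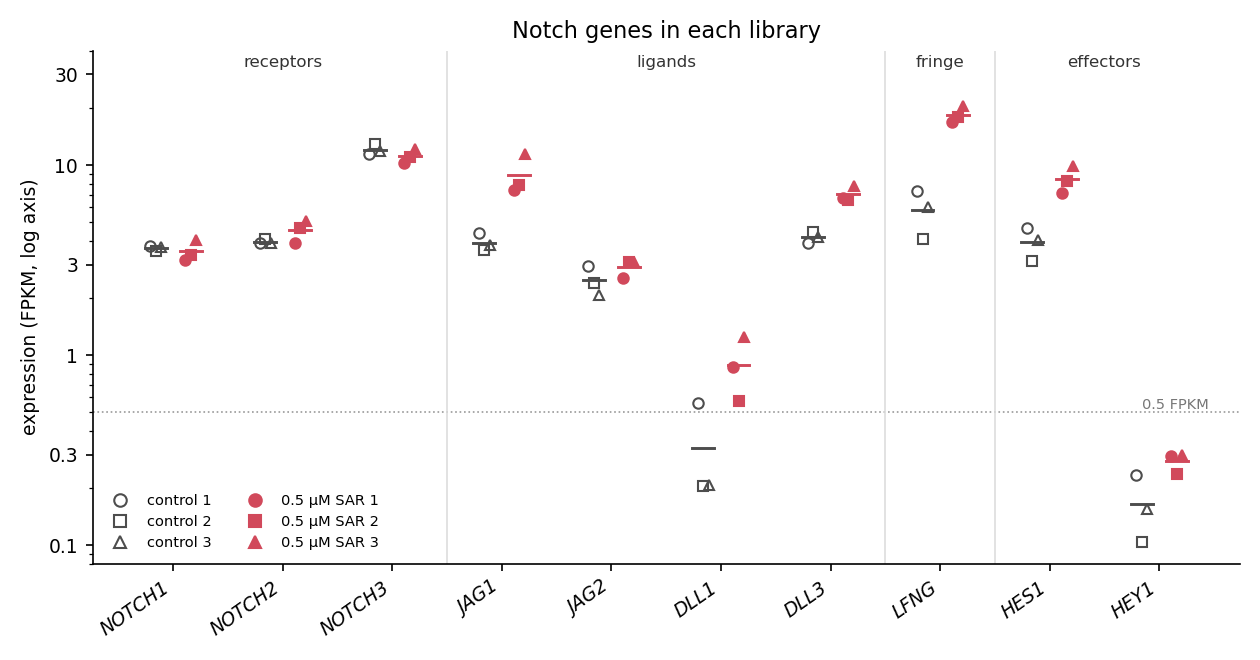
Expression of the 10 Notch genes in each library (FPKM, log axis), with open grey symbols for the 3 control libraries, filled red symbols for the 3 libraries with 0.5 µM SAR, bars for group means and a dotted line at the minimum mean for testing, 0.5 FPKM. The receptors overlap between the groups, whereas for JAG1, DLL1, DLL3, LFNG, HES1 and HEY1 all red symbols lie above all grey ones, and the filled triangle, SAR replicate 3, is the highest red symbol of each gene.

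The receptors bind the ligands and carry the signal to the nucleus. NOTCH3 (ENSG00000074181, chromosome 19 from 15159038 to 15200981 in GENCODE 29 on GRCh38) had the highest level of the receptors in every library. It measured 11.4, 12.99 and 11.8 FPKM in control replicates 1, 2 and 3 and 10.3, 11.1 and 12.2 FPKM with SAR. These groups overlap, and the log2 fold change was -0.11 (95% interval -0.31 to 0.08, adjusted p = 0.316 from limma).

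NOTCH2 (ENSG00000134250) measured 3.87, 4.11 and 3.90 FPKM in control and 3.91, 4.69 and 5.06 FPKM with SAR, where 2 of the 3 SAR libraries lay above all controls. Its log2 fold change was 0.19 (95% interval -0.05 to 0.43, adjusted p = 0.188 from limma), and it passed the test without SAR replicate 1, at 0.29 (adjusted p = 0.0411). NOTCH2 has near-identical partial copies in the genome, the NOTCH2NL genes, between which the counting could have split reads. The copies NOTCH2NLA, NOTCH2NLB, NOTCH2NLC and NOTCH2NLR were listed between 0 and 0.162 FPKM in all 6 libraries, so that the assignment of such reads to NOTCH2 or its copies is uncertain.

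NOTCH1 (ENSG00000148400) measured 3.74, 3.52 and 3.69 FPKM in control and 3.15, 3.39 and 4.05 FPKM with SAR. The SAR libraries lay on both sides of the controls, with a log2 fold change of -0.05 (95% interval -0.30 to 0.19, adjusted p = 0.703 from limma). The intervals of the 3 receptors ran from -0.31 to 0.43 on the log2 scale, well inside the limit of 1, and do not show that the levels were equal.

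The summed level of the 3 receptors was 19.7 ± 0.822 FPKM (SD, n = 3) in control and 19.3 ± 1.97 FPKM (SD, n = 3) with SAR (exact two-sided permutation test, p = 0.9). Shares within the sum do not depend on the library total. NOTCH3 held 61.3 ± 1.55% in control and 58.1 ± 1.07% with SAR, and NOTCH2 held 20.1 ± 0.215% and 23.6 ± 0.979% (SD, n = 3). Both shares did not overlap between the groups, and for both the exact two-sided permutation test gave p = 0.1, the smallest that 3 libraries against 3 allow. NOTCH1 held 18.6 ± 1.36% in control and 18.3 ± 0.693% with SAR.

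Of the 4 ligands, JAG1 and DLL3 rose and JAG2 and DLL1 did not pass the test. JAG1 (ENSG00000101384, chromosome 20 from 10637684 to 10673999), whose protein is a main activating ligand in liver and heart development, measured 4.38, 3.58 and 3.78 FPKM in control replicates 1, 2 and 3. With SAR it measured 7.42, 7.88 and 11.4 FPKM, and the lowest SAR library lay well above the highest control. These values rest on 664 to 892 reads per control library and 1151 to 1947 reads per SAR library. JAG1 was upregulated with a log2 fold change of 1.14 (standard error 0.167, 95% interval 0.75 to 1.54, adjusted p = 0.00392 from limma). Without SAR replicate 3, its highest library, the fold change was 0.95 and the adjusted p-value 0.00338, so that JAG1 still rose but was not upregulated.

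JAG2 (ENSG00000184916) encodes the other Jagged ligand and measured 2.94, 2.41 and 2.07 FPKM in control and 2.56, 3.08 and 3.09 FPKM with SAR. The lowest SAR library lay within the range of the controls, and the log2 fold change was 0.24 (95% interval -0.10 to 0.57, adjusted p = 0.237 from limma). In GENCODE 29, 7.33% of the exon bases of JAG2 are shared with a second annotated transcript, AL512356.1.

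DLL3 (ENSG00000090932, chromosome 19 from 39498895 to 39508481) encodes a divergent Delta-like protein that is known to act mainly within the cell that makes it and to inhibit Notch there. It measured 3.87, 4.44 and 4.21 FPKM in control and 6.73, 6.56 and 7.79 FPKM with SAR, the tightest groups among the genes that rose. Its log2 fold change was 0.74 (standard error 0.0901, 95% interval 0.52 to 0.95, adjusted p = 0.00219 from limma). DLL3 was therefore higher in 3 of 3 SAR libraries than in any control, by 1.68-fold in the means.

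DLL1 (ENSG00000198719), an activating Delta-like ligand, was low in both groups. It measured 0.562, 0.204 and 0.208 FPKM in control and 0.863, 0.572 and 1.24 FPKM with SAR, on 15 to 47 reads per control library and 37 to 87 per SAR library. Control replicate 1 nearly reached SAR replicate 2, and the groups did not overlap by a narrow margin. The mean of DLL1 was 0.325 FPKM in control and 0.891 FPKM with SAR, so that it reached the minimum level for testing only through the SAR libraries. At a log2 fold change of 1.27 with a standard error of 0.416, DLL1 missed the threshold (adjusted p = 0.0542 from limma). It passed without control replicate 1, at 1.64 (adjusted p = 0.0241), and with voom on read counts recovered from the FPKM, at 1.55 (adjusted p = 0.00993).

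**Figure D2:**
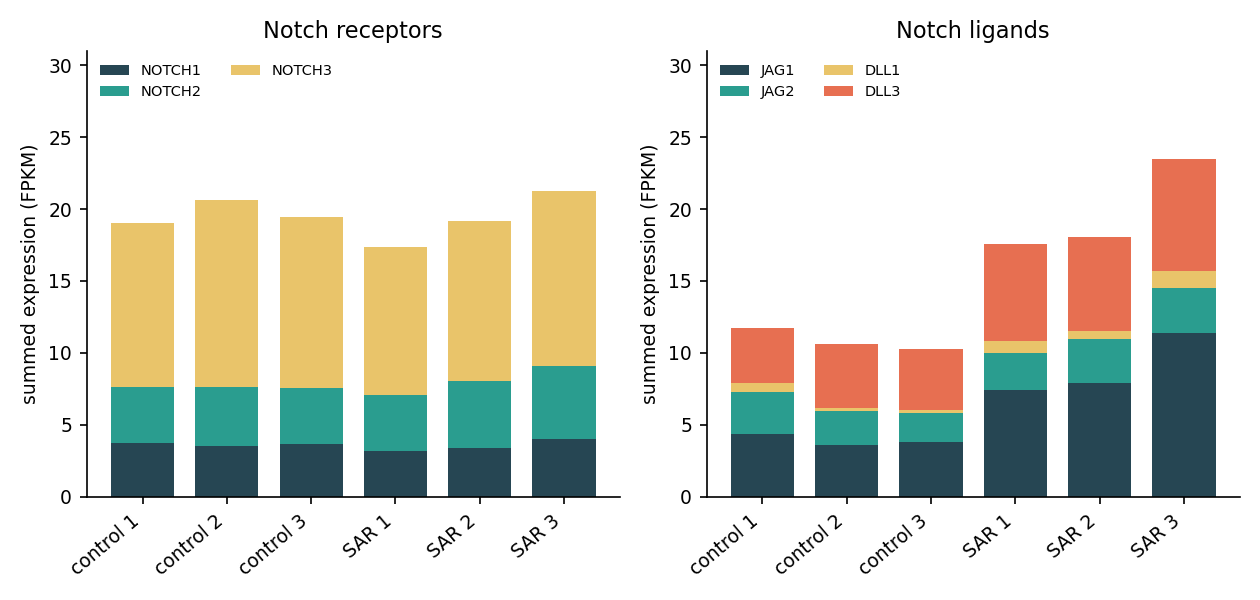
Summed expression (FPKM, axis from 0) of the 3 Notch receptors, left, and of the 4 Notch ligands, right, in each library, stacked by gene. The receptor sums of the SAR libraries (17.3 to 21.3 FPKM) overlap those of control (19.0 to 20.6 FPKM), and the ligand sums do not (17.6 to 23.5 against 10.3 to 11.8 FPKM).

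The summed level of the 4 ligands was 11.8, 10.6 and 10.3 FPKM in control and 17.6, 18.1 and 23.5 FPKM with SAR, without overlap. Their means were 10.9 ± 0.773 and 19.7 ± 3.29 FPKM (SD, n = 3; exact two-sided permutation test, p = 0.1, the smallest possible here). The share of JAG1 in this sum was 35.9 ± 1.96% in control and 44.7 ± 3.27% with SAR, and that of JAG2 was 22.6 ± 2.43% and 14.9 ± 1.96% (SD, n = 3). Both shares did not overlap between the groups, again with the smallest possible p of 0.1 in the exact permutation test. DLL3 held 38.6 ± 4.89% and 35.9 ± 2.61%, and DLL1 held 2.91 ± 1.62% and 4.45 ± 1.13%, with overlap in both. In control DLL3 and JAG1 were the most abundant ligands, with ranges that overlapped (3.87 to 4.44 and 3.58 to 4.38 FPKM), and with SAR JAG1 had the highest mean, in a range of 7.42 to 11.4 FPKM that overlapped that of DLL3.

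LFNG (ENSG00000106003, chromosome 7 from 2512529 to 2529177) encodes lunatic fringe, a glycosyltransferase of the Golgi that favours signaling by Delta-like over Jagged ligands for NOTCH1. It measured 7.31, 4.10 and 6.03 FPKM in control and 16.9, 17.9 and 20.6 FPKM with SAR. Control replicate 2 was the lowest library, and even the highest control lay far under the lowest SAR library. LFNG had 349 to 558 reads per control library and 983 to 1319 per SAR library. Of the 9 tested Notch genes it had the largest change and the smallest adjusted p-value, with a log2 fold change of 1.68 (standard error 0.199, 95% interval 1.21 to 2.16, adjusted p = 0.00196 from limma). It was upregulated in the fit of all libraries and under each of 15 alternatives (other pseudocounts, filters, scalings and fits, and each library left out), with log2 fold changes between 1.46 and 1.86.

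HES1 (ENSG00000114315, chromosome 3 from 194136145 to 194138732) encodes the repressor whose promoter is printed above. It measured 4.68, 3.14 and 4.01 FPKM in control replicates 1, 2 and 3 and 7.10, 8.25 and 9.88 FPKM with SAR, on 156 to 211 and 244 to 374 reads per library. No SAR library overlapped the controls. HES1 was upregulated with a log2 fold change of 1.08 (standard error 0.170, 95% interval 0.68 to 1.48, adjusted p = 0.00489 from limma). The value lay near the limit of 1 and fell under it in 5 of 15 alternatives, with a pseudocount of 1, at 0.93, after median-ratio rescaling, at 0.96, after quantile normalization, at 0.97, without control replicate 2, at 0.93, and without SAR replicate 3, at 0.96, while the rise passed the test in each of these.

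HEY1 (ENSG00000164683), a related repressor, was hardly expressed. It measured 0.233, 0.104 and 0.154 FPKM in control and 0.295, 0.237 and 0.297 FPKM with SAR, on 14 to 28 and 22 to 30 reads per library. Control replicate 1 lay just under the lowest SAR library, SAR replicate 2. In the fit without a filter on low values its log2 fold change was 0.54 (95% interval -0.20 to 1.27, adjusted p = 0.384 from limma), and at this depth no difference was detectable. The gene length behind these values was 5486 bases, where the GENCODE 29 exons cover 3232, and a longer length gives a lower FPKM.

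**Figure D3:**
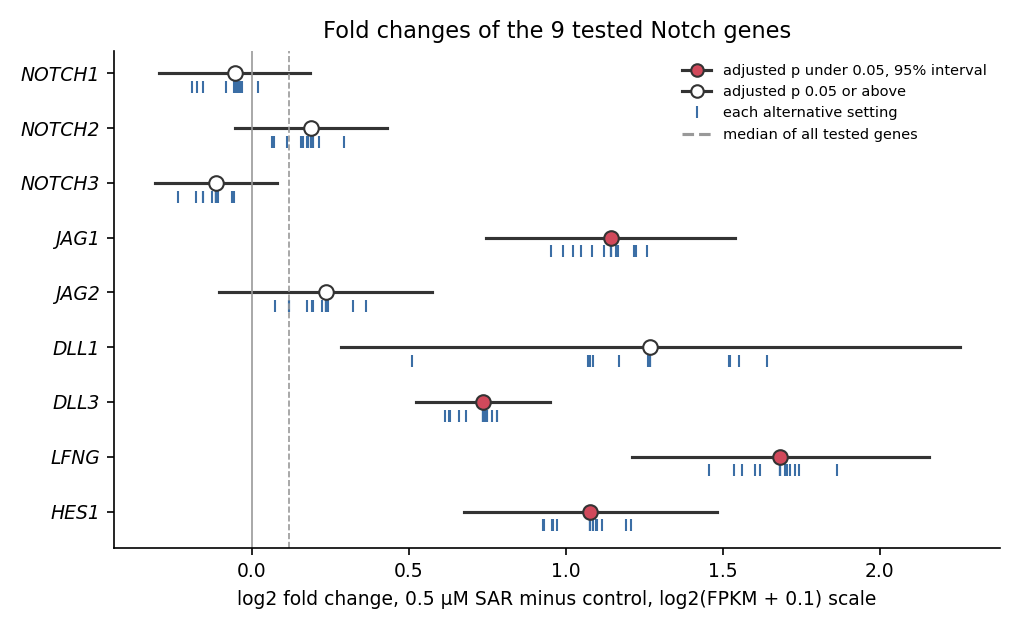
Log2 fold changes of the 9 tested Notch genes, 0.5 µM SAR minus control on the log2(FPKM + 0.1) scale, as circles with 95% intervals from limma, filled where the adjusted p-value was under 0.05, with a blue tick for each alternative setting and a dashed line at the median of all tested genes, 0.12. JAG1, DLL3, LFNG and HES1 lie to the right with intervals clear of 0, and those of NOTCH1, NOTCH2, NOTCH3 and JAG2 include 0.

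The order of the mean levels changed between the groups. In control NOTCH3 came first at 12.1 FPKM, followed by LFNG at 5.81, and DLL3, NOTCH2, HES1, JAG1 and NOTCH1 followed between 4.17 and 3.65 FPKM, each with a range that overlapped that of its neighbour in the order. With SAR LFNG came first at 18.4 FPKM, followed by NOTCH3 at 11.2, JAG1 at 8.89, HES1 at 8.41 and DLL3 at 7.03 FPKM. The range of LFNG lay above all others, and from NOTCH3 to DLL3 each range overlapped that of its neighbour. JAG2, DLL1 and HEY1 held the last places in both groups.

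The other genes of the pathway, 62 genes in 8 lists by role, were set beside these. Of the 53 that were tested, 22 rose and 4 fell, against 23.7% and 9.55% of all tested genes, and their median log2 fold change was 0.09, against 0.12 for all tested genes. The balance depended on the scaling, and after median-ratio rescaling 12 rose and 9 fell, with a median of -0.03. Of the 53, 3 were upregulated, NRARP, MFNG and HES3, and 0 were downregulated, against 3.41% and 1.58% of all tested genes. HES3 reached the minimum level for testing only through the SAR libraries, and MFNG lost its call under 10 of 15 alternatives.

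NRARP, a known Notch target whose protein limits Notch activity, measured 4.29, 3.27 and 3.47 FPKM in control and 8.15, 8.65 and 7.37 FPKM with SAR, without overlap. NRARP thus rose by 1.12 on the log2 scale, with a standard error of 0.115 (adjusted p = 0.00128 from limma). Of the 10 inhibitors and turnover genes in its list 9 were tested, of which 4 rose and 1 fell, against 23.7% and 9.55% of all tested genes. The others that rose were the Deltex genes DTX3 (0.43), DTX1 (0.75) and DTX4 (0.28), and ITCH, a ubiquitin ligase that targets Notch for breakdown, fell by 0.33 on the log2 scale. The call of DTX1 was lost under 9 of 14 alternatives, that of DTX4 under 10 of 15 and that of ITCH under 5 of 15. The median of the list was 0.06. After median-ratio rescaling 2 genes of the list rose and 3 fell, with a median of -0.06, where 13.8% and 15.5% of all tested genes did.

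Of the other HES and HEY genes 5 of 8 were tested, with 3 that rose and 1 that fell, against 23.7% and 9.55% of all tested genes. After median-ratio rescaling 2 rose and 1 fell, against 13.8% and 15.5%. HES4, a repressor close to HES1, measured 3.55, 3.04 and 3.55 FPKM in control and 6.33, 5.70 and 5.98 FPKM with SAR. Its log2 fold change was 0.81 (adjusted p = 0.00138 from limma). HEY2, which acts in the heart and vessels, rose by 0.53 (adjusted p = 0.0419), from 1.91 ± 0.367 to 2.79 ± 0.374 FPKM. HES3 had a log2 fold change of 2.51 (adjusted p = 0.0187) on few reads, with 4, 0 and 1 in the controls against 6, 16 and 16 with SAR. Its mean was 0.111 FPKM in control and 1.02 FPKM with SAR, so that, as for DLL1, it was tested only because it was higher with SAR. HES6, whose protein opposes HES1, fell and measured 8.89 ± 0.570 FPKM in control and 7.35 ± 0.621 FPKM with SAR (log2 scale, -0.27, adjusted p = 0.0443). The calls of HEY2 and HES6 were each lost under 9 of 15 alternatives. HES7, the oscillating repressor of the somite clock, measured 0.792 ± 0.240 FPKM in control and 1.37 ± 0.395 FPKM with SAR and did not pass (adjusted p = 0.0704). HES5, a main effector in neural progenitors, reached at most 0.0690 FPKM in any library.

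**Figure D4:**
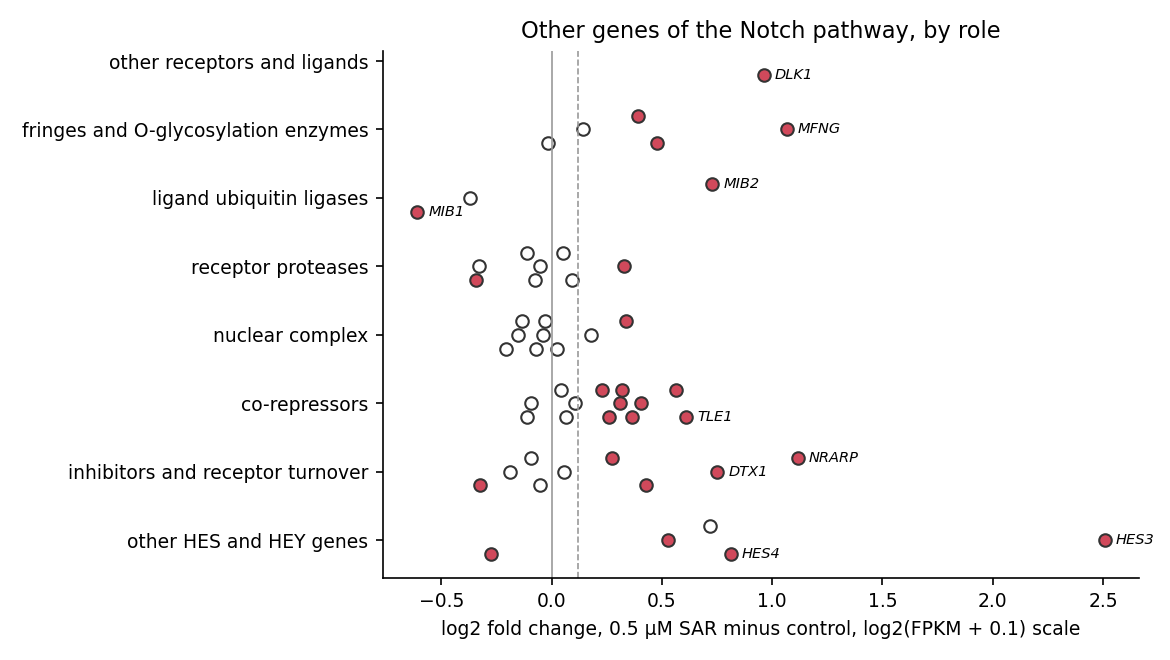
Log2 fold changes (0.5 µM SAR minus control, log2(FPKM + 0.1) scale) of the 53 tested genes in 8 lists of other Notch pathway genes, 1 circle per gene, filled where the adjusted p-value from limma was under 0.05, with a dashed line at the median of all tested genes, 0.12. NRARP, MFNG and HES3 lie above 1, 8 co-repressors lie to the right of 0 as filled circles (3 passed the test after median-ratio rescaling), and MIB1 lies farthest to the left.

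Of the 5 sugar-adding enzymes 3 rose and 0 fell, against 23.7% and 9.55% of all tested genes. The 3 were the fringes RFNG (0.39, adjusted p = 0.00608 from limma) and MFNG (1.07, adjusted p = 0.0424, lost under 10 of 15 alternatives) and POGLUT1, which puts glucose on the receptor (0.48, adjusted p = 0.016). After median-ratio rescaling 2 rose and 0 fell, against 13.8% and 15.5% of all tested genes. The median of these enzymes was 0.39, and 0.27 after rescaling. LFNG and RFNG were the most abundant fringes with SAR, at 18.4 and 9.07 FPKM, while MFNG measured 1.39 ± 0.466 FPKM.

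Of the 4 ubiquitin ligases of the ligands 3 were tested, and 1 rose and 1 fell, against 23.7% and 9.55% of all tested genes. After median-ratio rescaling 1 rose and 2 fell, against 13.8% and 15.5%. NEURL1B did not pass in the main fit (log2 fold change -0.37, adjusted p = 0.0874 from limma). The 2 Mind bomb ubiquitin ligases, which drive the endocytosis of ligands, moved in opposite directions. MIB1, the more abundant, fell and measured 25.5 ± 2.37 FPKM in control and 16.7 ± 1.88 FPKM with SAR (log2 scale, -0.61, adjusted p = 0.00593 from limma). MIB2 rose from 2.80 ± 0.367 to 4.69 ± 0.324 FPKM, by 0.73 (adjusted p = 0.00394). Both kept their direction and passed the test under each of the 15 alternatives.

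Of the receptor proteases 8 of 9 were tested, and 1 rose and 1 fell, against 23.7% and 9.55% of all tested genes. After median-ratio rescaling 0 rose and 2 fell, against 13.8% and 15.5%. The median of the list was -0.06, and -0.19 after rescaling. ADAM10, which makes the first ligand-dependent cut, fell from 16.2 ± 1.22 to 12.7 ± 0.255 FPKM (log2 fold change -0.34, adjusted p = 0.00999 from limma). PSENEN, a subunit of gamma-secretase, rose by 0.33 (adjusted p = 0.0295), and this call was lost under 8 of its 15 alternatives. In the nuclear complex all 9 genes were tested, and 1 rose and 0 fell, against 23.7% and 9.55% of all tested genes. The gene that rose was KAT2A, an acetyltransferase, at 0.34 (adjusted p = 0.0127 from limma). After median-ratio rescaling 1 rose and 1 fell, against 13.8% and 15.5% of all tested genes. RBPJ measured 15.6 ± 0.180 FPKM in control and 14.9 ± 0.952 FPKM with SAR (adjusted p = 0.415), and MAML1, its coactivator, 12.0 ± 0.417 and 10.8 ± 0.642 FPKM (adjusted p = 0.109). MAML1 passed the test as lower under 2 of 15 alternatives.

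Of the 13 co-repressors, which act with RBPJ and HES proteins or more widely, 8 rose and 0 fell, where 23.7% of all tested genes rose. After median-ratio rescaling 3 of the 13 rose and 0 fell, against 13.8% of all tested genes. The smallest adjusted p-values were those of TLE2 (0.57), CTBP1 (0.41), TLE1 (0.61), HDAC1 (0.23) and TLE5 (0.31), beside 0.12 for the median tested gene. After rescaling HDAC1, at 0.11, and TLE5, at 0.19, no longer passed the test. The median of the list was 0.26, and 0.14 after rescaling. Among other receptors and ligands only DLK1, a non-canonical ligand, was tested, and it rose from 0.784 ± 0.0652 to 1.63 ± 0.258 FPKM (0.96, adjusted p = 0.00519 from limma). NOTCH4 and DLL4, known from blood vessels, were highest in control replicate 1, at 0.473 and 0.250 FPKM, and at most 0.127 and 0.0869 FPKM in the other 5 libraries.

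Since DLL1, DLL3, LFNG and HES7 are also genes of the presomitic mesoderm, markers of that tissue were examined. The 11 such genes include DLL1, DLL3 and LFNG, whose values are given above. Of the other 8, 3 were tested and 2 rose, TBXT and TBX6, where 23.7% of all tested genes rose. TBXT, which marks the primitive streak and notochord, rose from 3.51 ± 0.245 to 11.7 ± 2.15 FPKM (1.69, adjusted p = 0.000574 from limma), and TBX6 rose from 1.22 ± 0.0290 to 2.23 ± 0.161 FPKM (0.82, adjusted p = 0.00207). MSGN1, MESP1, RIPPLY1 and RIPPLY2 lay under 0.5 FPKM in all libraries. The summed level of the 8 genes was 5.43 to 6.17 FPKM in control and 14.5 to 17.6 FPKM with SAR, most of it TBXT. Of 9 paraxial and lateral mesoderm markers, a list that also holds TBX6, 3 were tested. TBX6 rose, KDR, a receptor of vessel and blood precursors, fell (log2 scale, -0.22, adjusted p = 0.0177) and PDGFRA did not pass. Their sums of 16.2 to 16.5 FPKM in control and 15.6 to 16.1 FPKM with SAR were mostly KDR.

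Notch is also known to restrain proneural and multiciliated fates. Of 8 proneural genes 7 lay under 0.5 FPKM in all libraries, and only OLIG3 was tested. It measured 0.146, 0 and 0 FPKM in control and 2.32, 3.60 and 4.85 FPKM with SAR, and reached the minimum level only through the SAR libraries. Of 9 regulators of multiciliation and cilia 5 were tested and 3 passed as higher, where 23.7% of all tested genes rose. After median-ratio rescaling 2 rose, where 13.8% of all tested genes did. MYB and RFX3 did not pass, and MCIDAS, GMNC, TP73 and DEUP1 lay under 0.5 FPKM in all libraries. RFX2 rose by 0.93 (adjusted p = 0.0114 from limma). FOXJ1, at 0.463 ± 0.119 FPKM in control and 11.95 ± 3.28 FPKM with SAR, and CCNO, at 0.386 ± 0.282 and 1.04 ± 0.0676 FPKM, were tested only through their SAR libraries, and the call of CCNO was lost under 10 of 14 alternatives. Markers of other cell types were also read, and the 6 endothelial markers summed to 1.80 to 4.22 FPKM in control and 1.99 to 2.14 FPKM with SAR, with 4 of them under 0.5 FPKM in all libraries. The 6 neural ectoderm markers summed to 212 to 226 FPKM in control and 210 to 221 FPKM with SAR, nearly all of it OTX2 and NES, which did not pass the test. SIX3 measured 0.343 ± 0.112 FPKM in control and 1.14 ± 0.160 FPKM with SAR (1.51, adjusted p = 0.00631) and was also tested only through SAR, and PAX6 was at most 0.106 FPKM in control and 0.00291 FPKM with SAR. Whether cells of these types were present, and their part in the Notch values, was not tested.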

How the data were processed

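RNA-seq of 3 control and 3 SAR libraries was analysed. The authors deposited FPKM for 40396 Ensembl genes, 1 column per library and without pooling. The submitters' processing notes name HISAT2, featureCounts, Subread, DESeq2 and GRCh38.p13 without versions, and the annotation release and strand setting are not given in the sources used here. Because FPKM are not counts, limma 3.58.1 in R 4.3.3 (lmFit, eBayes with trend) was applied to log2(FPKM + 0.1) for genes whose mean reached 0.5 FPKM, without a replicate block. Fold changes are on that scale. Gene symbols were matched for 40304 IDs, and gene positions came from GENCODE 29.

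Library totals and read counts were recovered from the steps of the FPKM. With these totals and a whole-number gene length, 99.995% of genes gave whole reads in all 6 libraries (tolerance 0.01 read). The reads give depth and serve a test with voom, and cover counting error only. Between libraries of a group, chi-square divided by its degrees of freedom was 4.38 to 13.9, where sampling noise alone gives about 1, so none was counted as a repeat of another.

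The 10 genes, the lists and the tests were chosen with earlier results of these data known. All 10 genes are named, with the genes of each list that passed the test, at most 5 per list by adjusted p-value. RBPJ, MAML1, HES7, HES5, NOTCH4, DLL4, NEURL1B, MYB, RFX3 and the NOTCH2NL genes were added after their values were seen. So were the cell type markers and other genes named as untested or low. The fit was tested on simulated data, and 15 alternative settings were tried. Summaries used Python 3.11.15 with pandas 2.3.3 and numpy 2.4.6, and plots matplotlib 3.10.9.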

Additional observations from a re-analysis of the deposited data

How the results depend on the processing

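Settings tried were a pseudocount of 1 or 0.01, a filter at 1 FPKM or none, rescaling by median ratios or by quantiles, limma without trend, the replicate number as a block, voom on recovered reads, and leaving out each library in turn. The number of Notch genes that rose lay between 4 and 5 over the 15 alternatives, and 0 fell in any. JAG1, DLL3, LFNG and HES1 rose in all 15. The number that were differentially expressed, 3 as reported, was 1 with a pseudocount of 1, when JAG1 (0.99) and HES1 (0.93) lay under the limit of 1, and between 1 and 4 with a library left out. The lowest of these was without SAR replicate 3, and the highest, without control replicate 1, included DLL1. The log2 fold change of NOTCH1 lay between -0.16 and 0.021 with a library left out and changed sign without SAR replicate 1. Of the other Notch pathway genes, 22 rose and 4 fell as reported. With median-ratio rescaling 12 rose and 9 fell, with quantile normalization 14 and 7, with voom 7 fell, and with no filter 2 fell. With a library left out between 9, without control replicate 3, and 20 rose, and between 2 and 6 fell. Without SAR replicate 2, 14 rose. 2 fell without control replicate 2, control replicate 3, SAR replicate 1 or SAR replicate 2. Of 32 other named genes followed over the alternatives, 17 kept direction and call under all alternatives that tested them. Another 13 lost the call under at least 1, among them MFNG under 10 of 15, 2 gained it under at least 1, and 0 changed sign. The DE and pluripotency markers were not among the 32. Same-numbered libraries did not deviate together (correlations of 0.07, 0.003 and 0.02 between replicates 1, 2 and 3), and the number of the labels was not taken as a pairing. With it as a replicate block, 4 Notch genes rose, 3 were differentially expressed, and 18 other pathway genes rose and 4 fell. With 3 libraries against 3, exact tests cannot go below 0.1, and DLL1 and HEY1 were limited by their few reads.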
